A study of Mus musculus with 15 samples.

Results

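Genes of glucose uptake, glycolysis and glycogen handling were followed in the tibialis anterior, a fast-twitch leg muscle, of male 129Pas mice aged 7 weeks. The list holds 41 gene symbols, chosen by pathway role and with earlier results of these data known. It matched 42 of the 30672 gene identifiers in the count table, since *Aldoa* carries 2 Ensembl identifiers, and all 42 passed the filter on low counts. There were 15 libraries, namely 4 of WT, 4 of WT + TAM, 4 of Mtm1-/y and 3 of Mtm1-/y + TAM, where TAM is tamoxifen, a selective oestrogen receptor modulator. *Mtm1*, on the X chromosome, encodes the phosphoinositide phosphatase myotubularin, whose loss causes X-linked myotubular myopathy. How tamoxifen was given, at what dose and for how long, is unknown from the sources used. The labels name no separate animals for the replicates, so the p-values measure the spread between these libraries.

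Skeletal muscle takes up glucose mainly through the insulin-responsive transporter GLUT4, traps it with hexokinase, and either stores it as glycogen or breaks it down to pyruvate. Pyruvate becomes lactate in fast fibres at high work rates, or enters mitochondria through the pyruvate dehydrogenase complex. Fast muscle carries its own isozymes for many steps, such as *Pfkm*, *Pgam2*, *Eno3* and *Pygm*, and human mutations in several of these cause glycogen storage diseases with exercise intolerance.

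The promoters of *Fbp2* and *Pgam2* are shown as examples, since both genes fell in Mtm1-/y muscle and each window holds 2 of the 3 motifs searched for. *Ppp1r3a* also fell and also had CAGCTG and the MEF2 motif, and is not shown. RefSeq windows of build GRCm38.p6, from 250 bases before to 50 after the gene start, were found for 38 of the 41 symbols, with 55 windows in all. Capitals mark CAGCTG and CACGTG, which are both forms of the E-box, and the MEF2 motif. All motifs were searched on both strands. The *Fbp2* window lies at chr13:62858351-62858650 on the minus strand, with CAGCTG beginning 107 bases and CACGTG 42 bases before the start. The *Pgam2* window lies at chr11:5803747-5804046 on the minus strand, with CAGCTG beginning 125 bases and the MEF2 motif 80 bases before the start. In GENCODE release M21, the source of the gene coordinates, *Pgam2* starts at 5803733 on that strand. The whole window lies upstream of that position, so the *Pgam2* distances hold for the RefSeq start only.
Fbp2: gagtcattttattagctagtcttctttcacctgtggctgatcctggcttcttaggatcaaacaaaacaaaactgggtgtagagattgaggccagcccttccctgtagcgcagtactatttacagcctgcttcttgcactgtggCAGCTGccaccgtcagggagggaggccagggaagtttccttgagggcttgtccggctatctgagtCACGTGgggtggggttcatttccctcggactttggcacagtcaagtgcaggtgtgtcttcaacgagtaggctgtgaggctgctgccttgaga
Pgam2: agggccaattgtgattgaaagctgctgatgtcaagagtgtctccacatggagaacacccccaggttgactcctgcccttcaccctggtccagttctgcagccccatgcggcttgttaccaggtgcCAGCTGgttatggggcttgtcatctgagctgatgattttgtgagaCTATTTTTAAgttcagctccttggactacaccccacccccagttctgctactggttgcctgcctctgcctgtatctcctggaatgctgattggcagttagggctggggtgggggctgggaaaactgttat

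CAGCTG was present in 25.5% of the member windows and in 16.3% of all 32851 windows. CACGTG was present in 14.5% and 7.15%, and the MEF2 motif in 5.45% and 3.19%, the latter in *Pgam2*, *Ppp1r3a* and *Pfkfb1*. These shares are a description of letters in the windows and say nothing about binding.

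Depth was 18042558 to 45823277 counts per library. Values are CPM, the counts scaled to a common library size, with TMM factors that correct for composition. *Mtm1* itself read 14.9 to 15.6 CPM across the WT libraries, 13.5 to 17.7 CPM with tamoxifen, 2.91 to 3.63 CPM across the Mtm1-/y libraries and 3.04 to 3.71 CPM with tamoxifen, in the direction of the labels. The 9 fast-fibre markers summed to 154869 to 207285 CPM in the WT group, and 3 of 4 Mtm1-/y libraries lay below that range, at 135926 to 167192 CPM over the 4, with 1 marker called lower. WT + TAM replicate 1 stood apart, with a slow-fibre marker sum of 1239 CPM against 55.6 to 100.3 CPM in the other WT and WT + TAM libraries, and an adipocyte marker sum of 38.4 CPM against 0.267 to 5.77 CPM. The 5 endothelial markers summed to 376 to 493 CPM in the WT group and 191 to 264 CPM in Mtm1-/y, and all 5 were called lower. The 6 markers of developing or regenerating fibres summed to 42.3 to 56.5 CPM in the WT group and 130.0 to 264 CPM in Mtm1-/y, and all 6 were called higher. Among macrophage, Schwann cell and fibroblast markers, 2 of 7, 2 of 5 and 1 of 5 were called higher in Mtm1-/y, and none lower. The part of any of these in the results below was not tested. In bulk tissue, fewer cells of a type and less RNA per cell cannot be told apart.

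The listed genes took 5.93 to 6.19% of all counts in WT, 5.65 to 6.56% in WT + TAM, 4.56 to 5.93% in Mtm1-/y and 5.30 to 5.81% in Mtm1-/y + TAM. *Aldoa*, the aldolase of muscle, alone took 1.70 to 1.85% in WT. On a scale of CPM per kilobase of exon, the WT means of the 5 most abundant members were 6351 for *Aldoa*, 5672 for *Eno3*, 3466 for *Pgam2*, 2798 for *Pygm* and 1793 for *Pfkm*. *Slc2a4*, which encodes GLUT4, stood at 199, and *Slc2a3* at 1.40. *Gapdh* stood at 5.95 and *Pgk1* at 26.6. Their transcripts share sequence with other genes, as given below. Their place in this order and their part in the share of counts are therefore uncertain.

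**Figure D1:**
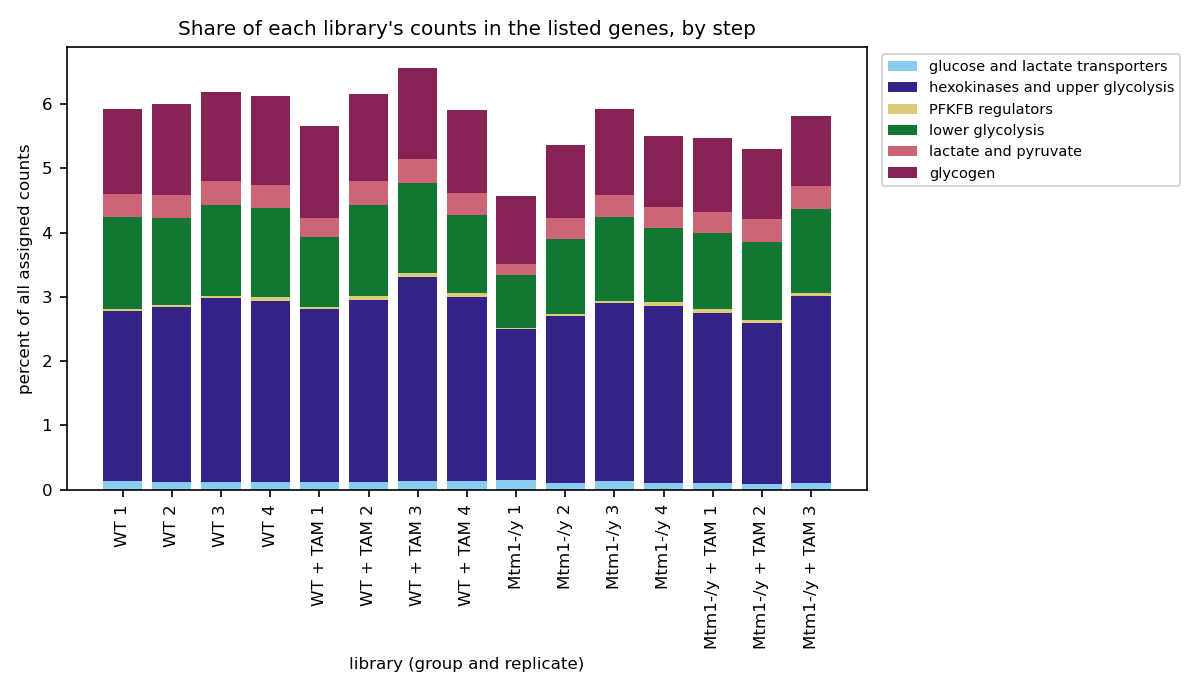
Stacked bars give the percent of all assigned counts in each library that fell in the listed genes, coloured by pathway step. WT libraries lie between 5.93 and 6.19%, and Mtm1-/y replicate 1 is the lowest at 4.56%.

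The first comparison asks which steps differ between Mtm1-/y and WT muscle without tamoxifen. In Mtm1-/y muscle 13 members fell and 1 rose, and the losses were spread over upper and lower glycolysis, lactate and pyruvate, and glycogen. Among the transporters only *Slc2a3* fell, with a WT mean of 1.40 CPM per kilobase of exon against 199 for *Slc2a4*. The main transporter *Slc2a4* was not called, and *Slc2a1* was the member that rose. The glucose transporter *Slc2a3* fell by 2.88 on the log2 scale, the fructose-bisphosphatase *Fbp2* by 1.34, the lactate dehydrogenase subunit *Ldhb* by 0.89, the glycerol-3-phosphate dehydrogenase *Gpd1* by 0.85 and the pyruvate dehydrogenase subunit *Pdha1* by 0.80. By edgeR's quasi-likelihood test with Benjamini-Hochberg adjustment over 15533 genes at adjusted p under 0.05, 13 of 42 members (31.0%) were lower, against 14.9% of all tested genes, and 1 of 42 was higher, against 15.5%. In 10 members every Mtm1-/y library was under every WT library, against 15.7% of all tested genes. The median log2 fold change of the members was -0.29, and that of all tested genes 0.00047. These shares describe a list that was chosen with earlier results of these data known.

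The calls were not equally firm. Without Mtm1-/y replicate 2, 9 members were called, all lower, and *Eno3*, *Pfkm*, *Ppp1r3a*, *Slc2a1* and *Tpi1* were lost. With library size alone in place of TMM factors, which shifts the median of all genes by 0.15 on the log2 scale, 11 members were lower and 4 higher.

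**Figure D2:**
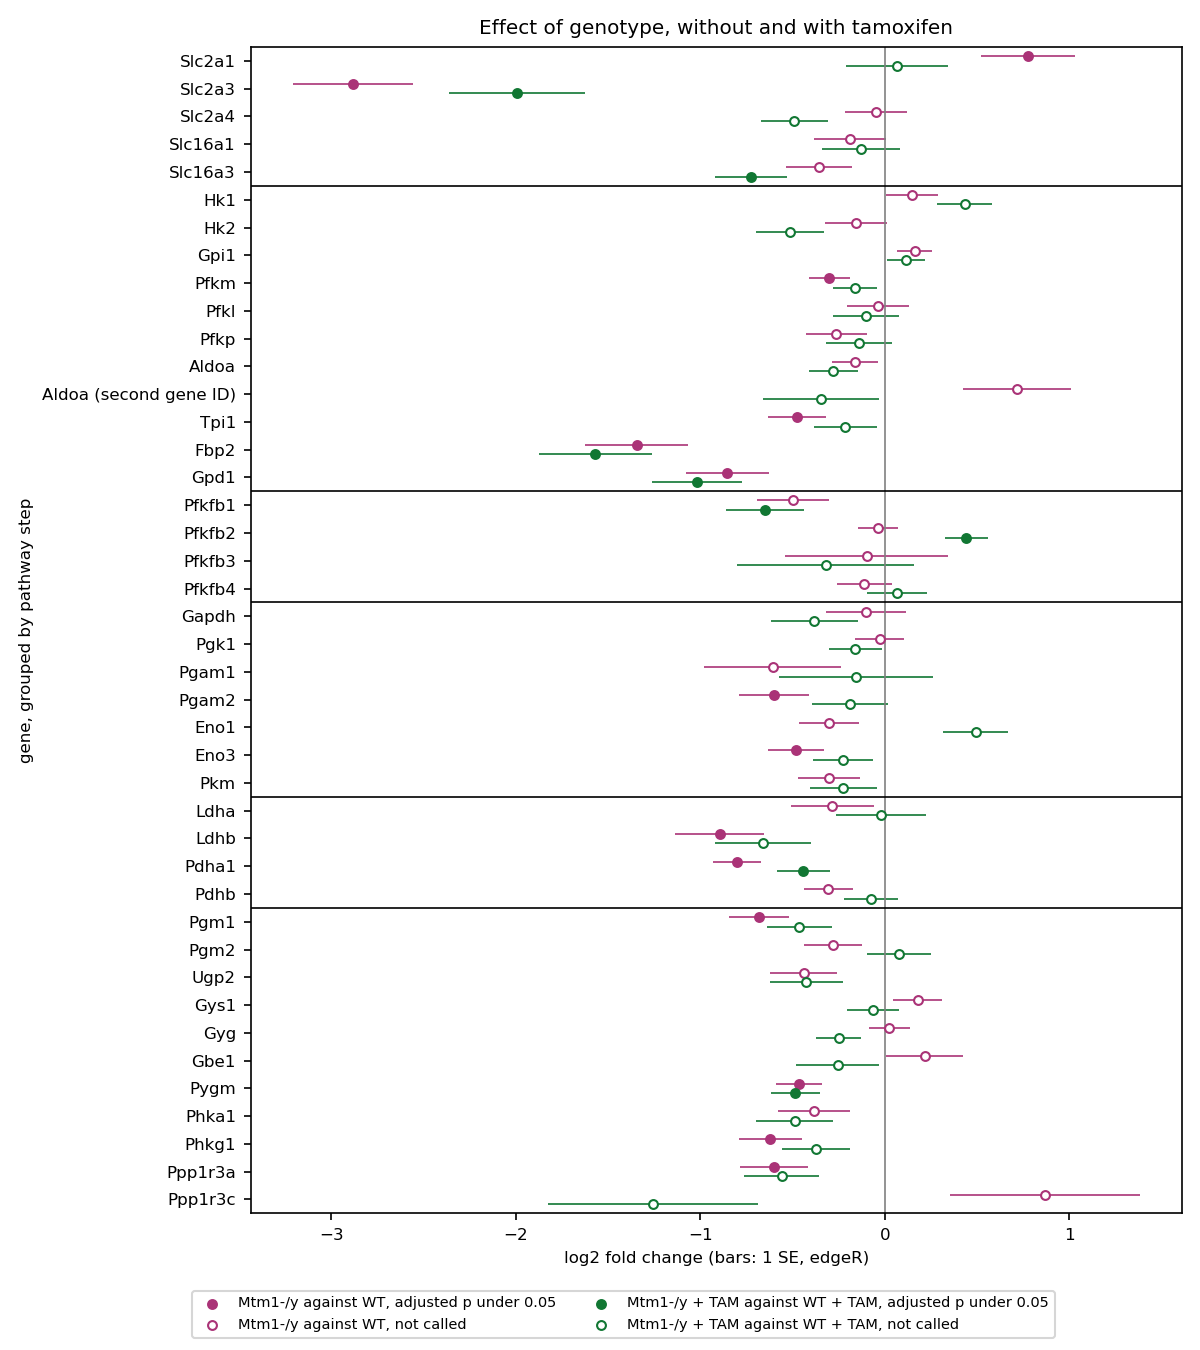
Log2 fold changes of all 42 members, grouped by step, for Mtm1-/y against WT (purple) and Mtm1-/y + TAM against WT + TAM (green). Bars are 1 SE of the edgeR fit and filled points have adjusted p under 0.05. Most points lie left of 0, with *Slc2a3* and *Fbp2* farthest left in both contrasts.

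Among the transporters, *Slc2a3* (chr6:122727809-122801640, minus strand, GRCm38), which encodes GLUT3, a transporter best known from neurons and other cells with high glucose demand, read 11.5, 11.4, 9.51 and 8.24 CPM in the WT libraries and 1.26, 1.17, 1.748 and 1.32 CPM in Mtm1-/y. The groups did not overlap, and the fitted difference was -2.88 on the log2 scale (SE 0.33, adjusted p = 2.8e-05). The call held under all 18 alternatives, with log2 fold changes of -2.99 to -2.74. *Slc2a1*, which encodes the basal transporter GLUT1, was the member that rose, from a mean of 6.45 ± 1.04 CPM to 11.02 ± 2.65 CPM (SD over 4 libraries each, as for all values written this way), or 0.78 on the log2 scale (SE 0.25, adjusted p = 0.031), and 6 of 18 alternatives lost the call. GLUT4 mRNA (*Slc2a4*) read 656.6 to 718 CPM in the WT group and 502 to 903 CPM in Mtm1-/y and was not called (adjusted p = 0.855). The monocarboxylate transporters, which carry lactate across the membrane, were not called either, with log2 fold changes of -0.19 for *Slc16a1* and -0.36 for *Slc16a3*. Endothelial cells also express glucose transporters, and the endothelial marker sum fell from WT to Mtm1-/y as given above. The part of any cell type in the *Slc2a3* and *Slc2a1* values was not tested.

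In the group of hexokinases and upper glycolysis, 4 of 11 identifiers (36.4%) fell and none rose, against 14.9% and 15.5% of all tested genes. The 4 were *Fbp2* and *Gpd1*, which are not steps of glycolysis itself, and *Pfkm* and *Tpi1*, which are. No step was tested as a set. *Fbp2* (chr13:62836877-62858422, minus strand), the muscle fructose-1,6-bisphosphatase that runs against phosphofructokinase, read 56.2, 63.8, 63.3 and 61.6 CPM in the WT libraries and 15.1, 26.4, 31.9 and 23.2 CPM in Mtm1-/y. Every Mtm1-/y library was below every WT library, with a fitted log2 difference of -1.34 (SE 0.28, adjusted p = 0.0029). *Gpd1* (chr15:99717515-99725005, plus strand), which draws dihydroxyacetone phosphate off to glycerol 3-phosphate, read 1015, 857, 743 and 818 CPM in the WT libraries and 319, 421, 786 and 376 CPM in Mtm1-/y. Here Mtm1-/y replicate 3 lay inside the WT range while the other libraries were well below it, and the fitted log2 difference was -0.85 (SE 0.22, adjusted p = 0.0098). Part of the *Gpd1* exons, 13.0%, is overlapped by a gene on the opposite strand.

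*Pfkm*, the muscle phosphofructokinase and the main control point of the pathway, fell from 5990.2 ± 386 to 4867 ± 545 CPM (log2 fold change -0.30, SE 0.11, adjusted p = 0.049), a call that 12 of 18 alternatives lost. Of the *Pfkm* exon bases, 10.2% are overlapped on the same strand. *Tpi1*, triose phosphate isomerase, fell from 2382 ± 226 to 1714 ± 439 CPM (log2 fold change -0.48, SE 0.16, adjusted p = 0.034), and 8 of 18 lost it. Both had Mtm1-/y replicate 3 inside the WT range. The muscle hexokinase *Hk2* (389 ± 47.9 against 349.8 ± 87.1 CPM), the ubiquitous hexokinase *Hk1* (15.1 ± 1.38 against 16.7 ± 2.14 CPM), the isomerase *Gpi1* (916 ± 47.5 against 1025 ± 74.3 CPM) and *Aldoa* (18487 ± 534 against 16538 ± 1965 CPM) were not called. *Pfkl* and *Pfkp*, the liver and platelet phosphofructokinases, were also not called and stayed at 7.66 to 15.8 CPM in both groups. The second *Aldoa* identifier read 0.443 to 0.553 CPM in the WT group and 0.560 to 1.099 CPM in Mtm1-/y, with an adjusted p of 0.077. The PFKFB enzymes, which make and remove fructose 2,6-bisphosphate, the activator of phosphofructokinase, gave no call among 4. *Pfkfb3* varied most within groups, from 133 to 494 CPM in Mtm1-/y and from 195 to 547 CPM in WT.

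In lower glycolysis, 2 of 7 genes (28.6%) fell, against 14.9% of all tested genes, and both were muscle isozymes. *Pgam2*, muscle phosphoglycerate mutase, whose promoter is printed above, fell from 2912 ± 293 to 1923 ± 589 CPM (log2 fold change -0.60, SE 0.19, adjusted p = 0.026). *Eno3*, muscle enolase, fell from 9864 ± 653 to 7062 ± 1483 CPM (log2 fold change -0.48, SE 0.15, adjusted p = 0.024). The *Pgam2* call was lost in 2 of 18 alternatives, without WT replicate 1 and with the 2 groups fitted alone (adjusted p up to 0.075), and the *Eno3* call in 4 of 18. *Pkm*, pyruvate kinase, read 1827 to 1906 CPM in the WT group and 910.4 to 1873 CPM in Mtm1-/y and was not called (adjusted p = 0.19), and its level is uncertain, with 25.8% of its 50-base stretches shared with other genes and 15.3% of its exon bases overlapped on the same strand. Mtm1-/y replicate 1 gave the lowest value of its group in 19 of 42 members and the highest in 12, while replicate 3 gave the lowest in 4 and the highest in 26. *Gapdh* at 20.7 to 30.6 CPM, *Pgk1* at 53.9 to 68.7 CPM, *Pgam1* at 0.310 to 0.499 CPM and *Eno1* at 18.9 to 26.1 CPM in WT are uncertain levels. Of the 50-base stretches in their transcripts, 25.1%, 53.9%, 36.2% and 26.0% respectively also occur in transcripts of other genes.

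At the branch to lactate and mitochondria, 2 of 4 genes fell, against 14.9% of all tested genes. *Ldhb* (chr6:142490249-142507957, minus strand), the lactate dehydrogenase subunit of oxidative tissue, read 29.96, 43.1, 43.9 and 43.8 CPM in the WT libraries and 25.2, 22.0, 18.3 and 20.8 CPM in Mtm1-/y. The groups did not overlap, with a fitted log2 difference of -0.89 (SE 0.24, adjusted p = 0.013). Some of its sequence also occurs in another gene, so its level is uncertain. *Pdha1* (chrX:160122209-160138413, minus strand), the catalytic alpha subunit of pyruvate dehydrogenase, read 1033, 1094, 1025 and 1027 CPM in the WT libraries and 481, 580.1, 738 and 600.3 CPM in Mtm1-/y. All Mtm1-/y libraries were clearly under the narrow WT range, with a fitted log2 difference of -0.80 (SE 0.13, adjusted p = 0.00048). A gene on the opposite strand overlaps 16.1% of its exon bases. *Pdhb*, the beta subunit, read 157 ± 7.77 against 127 ± 15.3 CPM and missed the threshold (log2 fold change -0.30, adjusted p = 0.098). *Ldha*, the main subunit of fast muscle, read 2398 to 2709 CPM in the WT group and 981 CPM in Mtm1-/y replicate 1 against 2252 to 2773 CPM in the other Mtm1-/y libraries, and was not called (adjusted p = 0.36).

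**Figure D3:**
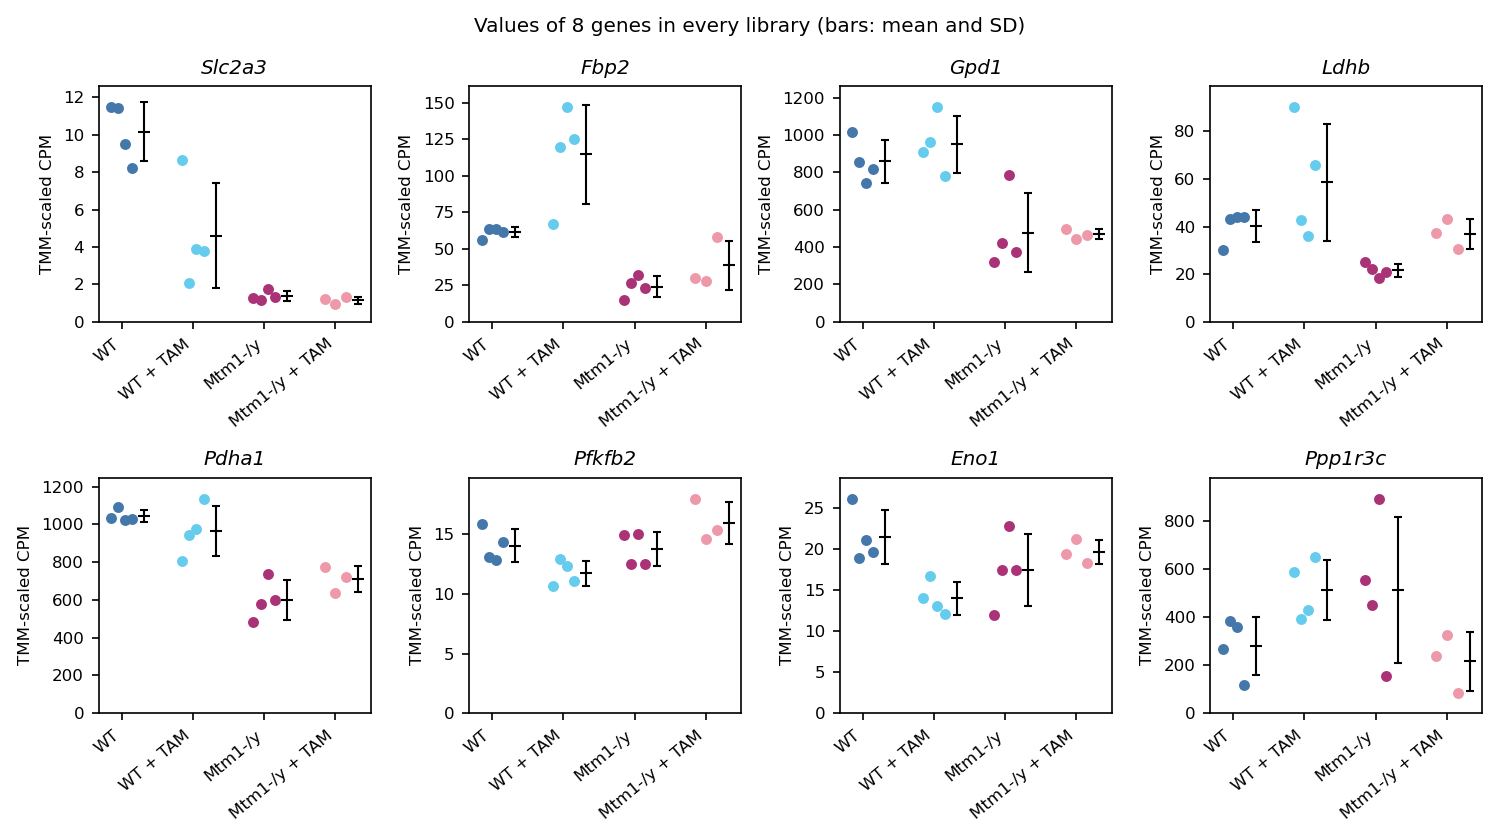
TMM-scaled CPM of 8 genes in every library, with group means and SD as bars. In *Slc2a3*, *Fbp2*, *Ldhb* and *Pdha1* the 4 Mtm1-/y points lie under all 4 WT points, while in *Gpd1* Mtm1-/y replicate 3 lies within the WT range.

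Of the glycogen genes, 4 of 11 (36.4%) fell and none rose, against 14.9% and 15.5% of all tested genes. *Pgm1*, phosphoglucomutase, which links glycogen to glycolysis, fell from 1357 ± 104 to 846 ± 235 CPM (log2 fold change -0.68, SE 0.16, adjusted p = 0.0059), with 13.6% of its exon bases overlapped by a gene on the opposite strand. *Phkg1*, the catalytic subunit of muscle phosphorylase kinase, fell by 0.62 and *Ppp1r3a*, a glycogen-targeting subunit of protein phosphatase 1, by 0.60 on the log2 scale (adjusted p = 0.012 and 0.022). *Pygm*, muscle glycogen phosphorylase, fell from 9003 ± 545 to 6517 ± 1165 CPM (log2 fold change -0.47, SE 0.12, adjusted p = 0.011). The synthesis genes were not called, with *Gys1*, glycogen synthase, at 636 ± 37.7 against 719 ± 93.6 CPM, its primer *Gyg* at 313 ± 31.4 against 318 ± 43.5 CPM, the branching enzyme *Gbe1* at 95.9 ± 11.9 against 111 ± 15.6 CPM, and *Ugp2*, which makes UDP-glucose, at 863 ± 132 against 637 ± 148 CPM (adjusted p = 0.080). *Phka1*, the alpha subunit of phosphorylase kinase, was not called (log2 fold change -0.38, adjusted p = 0.15), and *Pgm2* read 2.26 to 3.45 CPM in both groups. *Ppp1r3c*, a phosphatase subunit that promotes glycogen synthesis, ran from 117 to 386 CPM in the WT group and from 155 to 894 CPM in Mtm1-/y, too wide a spread for a call (adjusted p = 0.22).

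**Figure D4:**
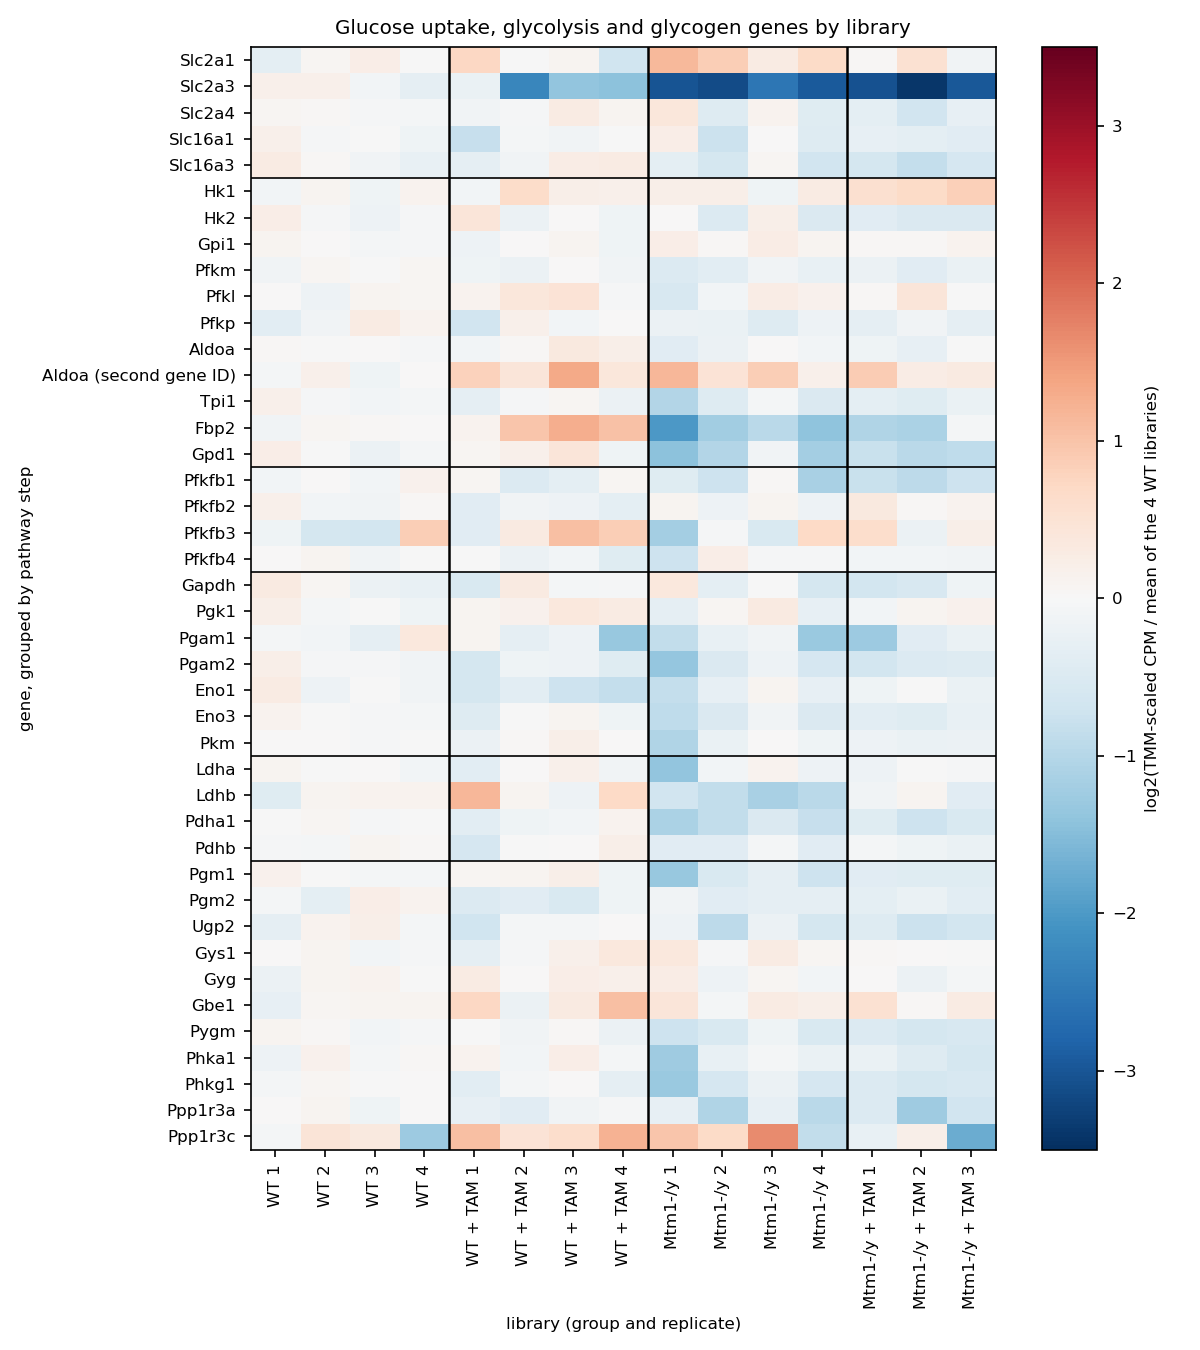
Each cell is log2 of the TMM-scaled CPM of a gene in a library over the mean of the 4 WT libraries, with genes in rows by step and libraries in columns. *Slc2a3* is blue in all Mtm1-/y and Mtm1-/y + TAM libraries, where it read 0.953 to 1.748 CPM against 8.24 to 11.5 CPM in WT.

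The isozyme make-up was described per kilobase of exon, with no test. *Ldhb* made up 2.28 to 3.71% of lactate dehydrogenase transcripts in WT and 1.37 to 1.92% in 3 Mtm1-/y libraries, but 5.14% in Mtm1-/y replicate 1, where *Ldha* was low. GLUT3 (*Slc2a3*) was 0.593 to 0.755% of the GLUT1, GLUT3 and GLUT4 sum in WT and 0.0657 to 0.121% in Mtm1-/y. GLUT1 was 0.693 to 1.102% and 1.02 to 2.26% of it. *Hk1* was 2.13 to 2.94% of the hexokinase pair in WT, 1.87 to 4.64% in WT + TAM, 2.06 to 4.46% in Mtm1-/y and 4.998 to 6.36% in Mtm1-/y + TAM. Muscle isozymes made up nearly all of the other families: *Pfkl* and *Pfkp* together gave at most 0.248%, *Eno1* at most 0.0932% and *Pgam1* at most 0.00914% of their families, the last 2 with the uncertainty given above.

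The same question was asked in treated muscle. The group means come from other libraries than in the first comparison. The count filter, scaling and estimate of spread were shared over all 15 libraries, so the comparisons are not independent. Here 7 of 42 members (16.7%) were lower in Mtm1-/y + TAM than in WT + TAM, against 9.46% of all tested genes, and 1 was higher, against 10.6%. In 15 members every Mtm1-/y + TAM library lay under every WT + TAM library, against 14.4% of all tested genes, and the median log2 fold change was -0.25, with -0.017 over all tested genes. Cell-type markers moved here too. Fast-fibre sums were 153682 to 175806 CPM in WT + TAM and 135827 to 142499 CPM in Mtm1-/y + TAM, without overlap, and 2 of 9 markers were called lower. Developing or regenerating fibre sums were 40.4 to 69.97 against 178 to 248 CPM (5 of 6 called higher), endothelial sums 245 to 457 against 201 to 259 CPM (3 of 5 called lower) and macrophage sums 31.0 to 48.0 against 52.5 to 90.5 CPM (none of 7 called). Their part in the results was not tested. *Slc2a3* (-1.99, SE 0.37, adjusted p = 0.0019), *Fbp2* (-1.57, SE 0.31, adjusted p = 0.00345), *Gpd1* (-1.02, SE 0.25, adjusted p = 0.0096), *Pygm* (-0.48, SE 0.14, adjusted p = 0.020) and *Pdha1* (-0.44, SE 0.14, adjusted p = 0.041) fell in this contrast as well. These 5 are shared by the 14 genes called without and the 8 called with tamoxifen. *Slc16a3*, the lactate exporter MCT4 (-0.72, SE 0.20, adjusted p = 0.017), and *Pfkfb1* (-0.65, SE 0.21, adjusted p = 0.043) were called lower here and not in untreated muscle, although the interaction did not pass for either (adjusted p = 0.632 and 0.869). The calls of *Pfkfb1* and *Pdha1* were lost in 10 and 9 of 17 alternatives, while those of *Slc2a3*, *Fbp2* and *Gpd1* held in all 17.

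*Pfkfb2* (chr1:130689182-130729253, minus strand), the isoform best known from heart, read 15.9, 13.1, 12.9 and 14.4 CPM in the WT libraries, 10.7, 12.9, 12.3 and 11.1 CPM in WT + TAM, 14.96, 12.5, 14.999 and 12.5 CPM in Mtm1-/y, and 17.97, 14.6 and 15.4 CPM in Mtm1-/y + TAM. The treated groups did not overlap, and Mtm1-/y + TAM was higher (log2 fold change 0.44, SE 0.12, adjusted p = 0.015). Part of its exons, 17.4%, is overlapped by another gene on the same strand. With DESeq2, 15 members were called in place of 8, and without Mtm1-/y + TAM replicate 2, 4 were. Without WT + TAM replicate 3, or without Mtm1-/y + TAM replicate 3, 5 were called. With library size alone, 5 were lower and 4 higher.

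The next comparison asks whether tamoxifen moved these genes within a genotype. No member was called by edgeR's quasi-likelihood test in WT + TAM against WT, where 0.309% of all tested genes were, or in Mtm1-/y + TAM against Mtm1-/y, where 0.0129% were. At an unadjusted p under 0.05, 8 of 42 members passed in WT, against 11.3% of all tested genes, and 4 of 42 in Mtm1-/y, against 5.54%. In WT, DESeq2 called 3 members (*Slc2a3*, *Fbp2* and *Eno1*) and limma-voom 1 (*Slc2a3*), and in Mtm1-/y neither called any.

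*Slc2a3* in WT + TAM read 8.66, 2.09, 3.91 and 3.78 CPM, so that 3 of 4 libraries lay under the WT range of 8.24 to 11.5 CPM and replicate 1, the library with the slow-fibre and adipocyte markers, lay inside it (log2 fold change -1.14, SE 0.30, adjusted p = 0.15). Without that library the log2 fold change was -1.62 (adjusted p = 0.0019). Mtm1-/y + TAM libraries read 1.22, 0.953 and 1.31 CPM, inside or under the untreated Mtm1-/y range. *Fbp2* read 66.9, 119.9, 147 and 125 CPM in WT + TAM, all above the WT range, and 29.6, 28.2 and 58.0 CPM in Mtm1-/y + TAM, with log2 fold changes of 0.91 (SE 0.27, adjusted p = 0.21) and 0.68 (SE 0.29, adjusted p = 0.85).

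*Ldhb* read 90.04, 42.7, 35.8 and 65.7 CPM in WT + TAM and 37.2, 43.3 and 30.6 CPM in Mtm1-/y + TAM. All Mtm1-/y + TAM libraries were above all untreated Mtm1-/y libraries, yet the difference was not called (log2 fold change 0.78, SE 0.26, adjusted p = 0.85). The highest *Ldhb* value, 90.04 CPM, came from WT + TAM replicate 1, whose slow-fibre marker sum is given above. The slow-fibre sum was also 103 to 232 CPM in Mtm1-/y + TAM against 89.6 to 123 CPM in Mtm1-/y, and its part in the *Ldhb* values was not tested. *Pdha1* read 809, 943, 975 and 1135 CPM in WT + TAM and 774, 636 and 724 CPM in Mtm1-/y + TAM, and *Gpd1* 908, 962, 1147 and 780.5 CPM and 497, 442 and 467 CPM. Both genes showed overlapping untreated and treated libraries within each genotype. *Hk1* read 22.2 to 26.7 CPM in Mtm1-/y + TAM and 13.6 to 18.4 CPM in Mtm1-/y, without overlap. It was not called either (log2 fold change 0.54, SE 0.15, adjusted p = 0.85). Against WT + TAM, *Hk1* in Mtm1-/y + TAM missed the threshold by edgeR (log2 fold change 0.43, adjusted p = 0.051) and was called by DESeq2 and limma-voom.

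**Figure D5:**
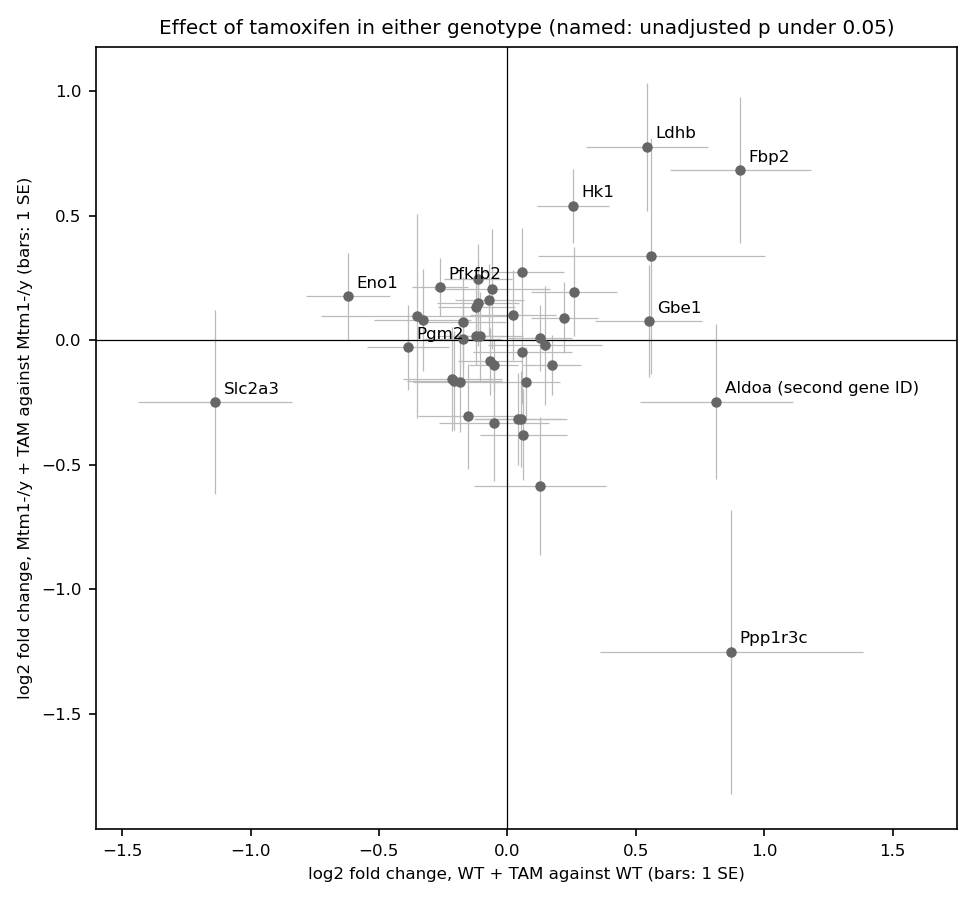
Log2 fold change under tamoxifen in WT (x axis) and in Mtm1-/y (y axis) for all 42 members, with 1 SE as bars and names for genes with unadjusted p under 0.05 in either. *Fbp2* (0.91 and 0.68) and *Ldhb* (0.54 and 0.78) lie above 0 on both axes, and *Ppp1r3c* lies at 0.87 in WT and -1.25 in Mtm1-/y, none of them called.

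The interaction asked whether the tamoxifen effect differed between genotypes, and by edgeR 0.0% of all tested genes and no member were called, nor was any member by DESeq2 or limma-voom. At an unadjusted p under 0.05, 4 of 42 members passed, against 10.6% of all tested genes. *Eno1* (chr4:150236721-150248879, plus strand), the non-muscle enolase, read 26.1, 18.9, 21.2 and 19.7 CPM in the WT libraries, 14.02, 16.8, 13.1 and 12.1 CPM in WT + TAM, 12.0, 17.5, 22.8 and 17.5 CPM in Mtm1-/y, and 19.5, 21.3 and 18.4 CPM in Mtm1-/y + TAM. WT + TAM lay under every WT library while the Mtm1-/y groups overlapped, and the interaction was 0.80 on the log2 scale (SE 0.24, unadjusted p = 0.0044, adjusted p = 0.36). *Pfkfb2* gave an interaction of 0.48 (SE 0.16, unadjusted p = 0.0090, adjusted p = 0.38). *Ppp1r3c* gave -2.12 (SE 0.77, adjusted p = 0.40), with 391 to 652 CPM in WT + TAM and 83.9 to 327 CPM in Mtm1-/y + TAM.

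Among 68 other genes of the pathway, 64 passed the count filter. Of these, 15 (23.4%) were lower and 7 higher in Mtm1-/y than in WT, against 14.9% and 15.5% of all tested genes. In Mtm1-/y + TAM against WT + TAM, 13 (20.3%) were lower and 5 higher, against 9.46% and 10.6%. Of the pyruvate dehydrogenase kinases, which switch that complex off, *Pdk3* rose by 1.73 (adjusted p = 0.00029) and 1.76 (adjusted p = 0.00063) in the 2 contrasts, and *Pdk4* was called in untreated muscle, at 1.70 (adjusted p = 0.031), and not in treated muscle, at 0.49 (adjusted p = 0.598). *Pdk1* and *Pdk2* were not called in either, at -0.09 and -0.03 in untreated muscle. In CPM per kilobase of exon the WT mean of *Pdk3* was 0.589 and that of *Pdk2* 171. *Pdpr*, the regulatory subunit of the opposing phosphatase, fell by 1.02 (adjusted p = 0.0015) and 1.30 (adjusted p = 0.0010). Others past a log2 fold change of 1 in untreated muscle included *Slc2a6* (2.46), *Slc16a7* (-1.29) and *Pgm2l1* (-1.22). Of these, *Slc2a6* is near the floor, with 3 to 4 counts per WT library and 12 to 41 per Mtm1-/y library. *Slc16a7* is low too, with 20 to 55 and 7 to 20 counts. In treated muscle they included *Slc2a6* (1.81), *Gpd2* (-1.22), the mitochondrial partner of *Gpd1* in the glycerol phosphate shuttle, and *Pgm2l1* (-1.08). No gene of this wider list was called for tamoxifen or for the interaction. At an unadjusted p under 0.05, 6 of 64 passed in each genotype, against 11.3% of all tested genes in WT and 5.54% in Mtm1-/y. For the interaction 5 of 64 passed, against 10.6%.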

How the data were processed

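The deposited table holds raw counts per Ensembl gene, 1 column per library, with no normalization by the authors. HTSeq 0.6.1p1, STAR 2.5.3a, Bowtie2 2.2.8 and cutadapt 1.10 are listed in the submitters' processing notes, with builds mm10 and GRCm38. Their roles, the annotation and the strand setting were not given in the sources used. Reads shared between near-identical genes could therefore be lost or split.

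Symbols, coordinates and exon lengths came from GENCODE release M21. Groups came from the labels. The members and lists were chosen with earlier results of these data known. All members were named, and values of every library were given for members called with an absolute log2 fold change of at least 0.8 and for those called in a tamoxifen contrast (none) or with an unadjusted interaction p under 0.01. *Ppp1r3c* was plotted after its values were seen. Among the other pathway genes, 1 called gene is counted and its values are not reported here.

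Counts were fitted with edgeR 4.0.16 in R 4.3.3 (filterByExpr, minimum count 10; TMM factors; robust glmQLFit with 4 group means over 15 libraries; glmQLFTest). P-values were adjusted by Benjamini-Hochberg over 15533 genes. DESeq2 1.42.0 and limma-voom (limma 3.58.1) were alternatives, as were other scalings, filters and left-out libraries. The pipeline was tested on simulated data.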

Additional observations from a re-analysis of the deposited data

Results flagged for a closer look

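Each group of 4 libraries was searched for a value far from the other 3 (Dixon's test at 95%), and 5 of 126 such groups had 1. Chance flags about 1 in 20 groups. In WT replicate 1, *Ldhb* was 29.96 CPM against 43.1 to 43.9 CPM in the other WT libraries, and *Gbe1* was 78.2 CPM against 100.4 to 103.0 CPM. In WT replicate 2, *Pdha1* was 1094 CPM against 1025 to 1033 CPM. In Mtm1-/y replicate 3, *Pdhb* was 150.1 CPM against 118.4 to 120.2 CPM. In WT + TAM replicate 1, the library with slow-fibre and adipocyte markers, *Ugp2* was 528 CPM against 819 to 865 CPM. The part of those markers in the *Ugp2* value was not tested.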

How the results depend on the processing

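Across all alternatives run, no member that was called, or had an unadjusted p under 0.05, changed direction. In untreated muscle the count of called members (14) was 9 to 17 when a library was left out, 12 to 17 under other filters and scalings, and 2 with an absolute log2 fold change over 1 also required. In treated muscle (8) it was 4 to 9 with a library left out, 15 by DESeq2, 16 without Mtm1-/y replicate 1 and WT + TAM replicate 1 together, and 3 with an absolute log2 fold change over 1. For WT + TAM against WT (0) it was 0 to 1 with a library left out, 3 by DESeq2, 1 by limma-voom and 3 without both named libraries. It was 0 under every alternative run for Mtm1-/y + TAM against Mtm1-/y and for the interaction. The causes were not tested. The library-size scaling was chosen after seeing the data, as was leaving out libraries for the isozyme shares, where the *Pgam1* share difference of 0.000264 percentage points was -0.000357 to 0.00109.

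Same-numbered libraries were not paired by the labels, and 6 of 21 same-number correlations of deviations exceeded 0.1 (-0.113 to 0.306). Among pairs with different numbers, 10 of 63 did (-0.338 to 0.214). With the replicate number as a block, 13 members were called in untreated and 10 in treated muscle, and 0 in each other contrast. Counting error limits genes near the floor, such as *Pgam1* with 3 counts in its lowest library.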
